A study of Mus musculus with 86 samples.

Results

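The genes described here encode 40 proteins of the lysosome of mouse macrophages, among 24063 gene symbols measured. They were listed by name: 20 hydrolases (an enzyme that splits proteins, sugars or lipids, with Ctsa, Lgmn and Ppt1 counted among them), 3 other lumenal proteins, 7 membrane proteins, and 10 subunits or accessory proteins of the vacuolar proton pump (V-ATPase). For each gene symbol the longest listed transcript was used, and all 40 were measured in every fit except the strain comparisons, where the X-linked Gla, Lamp2 and Atp6ap1 read 0 and were left out.

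RNA was sequenced from 5 untreated C57BL6/J macrophage populations, each with 2 libraries. Microglia, the macrophages of the brain, and the peritoneal cavity's large (LPM) and small (SPM) macrophages were sorted by surface stain and not cultured. BMDM were grown from bone marrow for 6 to 8 days with L-cell conditioned medium, a source of M-CSF, and then kept overnight in M-CSF, and TGEM were peritoneal macrophages elicited with thioglycolate, whose medium was removed before they were fixed for chromatin work. The strains NOD/ShiLtJ and SPRET/EiJ each gave 1 microglia and 1 LPM library. LPM of C57BL6/J were also cultured for 7 days in 4 ng/ml IL-34 or 4 ng/ml M-CSF, both ligands of the receptor CSF1R. Each was combined with 2 µM all-trans retinoic acid (ATRA), DMSO, 1 ng/ml TGFB1 or the TGFB1 vehicle, 1 library per combination. Microglia of C57BL6/J were cultured for 7 days in 4 ng/ml IL-34, M-CSF or GM-CSF, 1 library each. They were set beside 1 fresh C57BL6/J microglia library of the same table. The GM-CSF library carries that name in its title while its treatment field names M-CSF. The labels give no animal numbers, sex or age, so how far the spread between libraries is technical is not known. In BMDM and in TGEM the 2 libraries also differed in the sex-linked genes Xist and Ddx3y, as given below.

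The lysosome is the acidic compartment in which macrophages degrade what they engulf. Its hydrolases work at low pH, which the V-ATPase maintains by pumping protons through its membrane sector V0 with energy from ATP split by its outer sector V1. Several subunits exist as alternative isoforms: Atp6v0d1 encodes the widely expressed d subunit of V0, and Atp6v0d2 a second form known in mice from osteoclasts and other macrophages. The transcription factors TFEB, TFE3, MITF and TFEC bind E-boxes, and TFEB is known to act on many lysosomal genes through such sites.

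RefSeq promoters (GRCm38.p6, 250 bases before to 50 after the start site) were matched for 33 of the 40 genes. The E-box CACGTG, which reads the same on both strands, lay in 12 of the 33 (36.4%, against 8.09% of 27025 genes). Its longer form TCACGTGA, which contains CACGTG, lay in 6 (18.2%, against 1.1%), those of Atp6v0d1, Atp6v1a, Ctsa, Ctsd, Gla and Mcoln1. All 6 genes were among the 32 of 40 called higher in the elicited macrophages described below. Stretches from 4 of these promoters, chosen by name, are shown, those of an α-galactosidase, a protease, a cation channel and a V1 subunit. Capitals mark TCACGTGA, and each is written 5′ to 3′ on the strand of its gene.
Gla (chrX:134601163-134601255, minus strand): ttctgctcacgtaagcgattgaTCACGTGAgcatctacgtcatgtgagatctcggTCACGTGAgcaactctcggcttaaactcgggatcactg
Ctsd (chr7:142387889-142387956, minus strand): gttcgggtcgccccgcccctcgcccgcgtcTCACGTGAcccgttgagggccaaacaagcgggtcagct
Mcoln1 (chr8:3500443-3500510, plus strand): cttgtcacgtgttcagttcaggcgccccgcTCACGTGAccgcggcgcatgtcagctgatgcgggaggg
Atp6v1a (chr16:44139354-44139421, minus strand): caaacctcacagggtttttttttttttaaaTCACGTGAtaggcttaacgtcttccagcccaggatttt
The stretch of Gla holds the letters at 2 places and the other 3 stretches at 1 place each. These are letter matches, and no binding of the factors was measured.

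Values were reads per 10000000 mapped reads, called read counts below. Mapped reads per library ran from 2890000 (SPM replicate 1) to 27000000 (TGEM replicate 1), and TGEM replicate 2 had 4030000. Replicate 1 of each population came from polyA RNA, and replicate 2 of LPM, SPM, microglia and TGEM from ribosomal RNA depletion, per the labels, which do not say it of BMDM, so the table was a term of the population fits. Libraries matched their labels in the microglia markers (78968 or more, summed over 6 genes, in microglia and at most 14324 in the other 8 libraries). LPM markers summed to 66858 and 38419 in LPM, but also to 42651 and 29238 in SPM. SPM held the most B cell marker reads (8724 and 5872). The 10 fibroblast and mesothelial markers summed to 3311 and 4805 in TGEM, with 0 of them at 0, to 148 and 73.1 in BMDM, and to at most 10.8 in the sorted libraries. Xist and Ddx3y, read in opposite ways by the libraries of BMDM (Xist 6418 and 6.52) and both found in TGEM replicate 2 (1738 and 186), differed between libraries of 1 population, which touches the X-linked Gla, Lamp2 and Atp6ap1.

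Lysosomal genes were highest in the elicited and bone marrow-derived cells and low in all 3 sorted populations. The 40 genes took 14.3% and 11.8% of the reads on genes in the TGEM libraries, 6.47% and 5.1% in BMDM, 2.13% and 1.1% in microglia, 1.86% and 1.02% in LPM, and 1.65% and 1.19% in SPM. No TGEM or BMDM library overlapped the sorted libraries in this share. Origin and time in culture medium cannot be told apart in this contrast, since the 3 sorted populations were not cultured. By mean level, 32 of the 40 genes were highest in TGEM, 5 in BMDM and 3 in LPM, while 23 were lowest in microglia. This order was not counted over all genes. Over all genes with a mean of at least 50, the median log2 fold against the other 4 populations was -0.28 in microglia and -0.09 in TGEM. In 31 of 40 genes all 4 BMDM and TGEM libraries lay above all 6 sorted libraries, against 10.9% of 19313 genes, and in 0 of 40 below them (9.16% of genes). In bulk libraries, fewer cells of a type and less RNA per cell cannot be told apart.

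**Figure D1:**
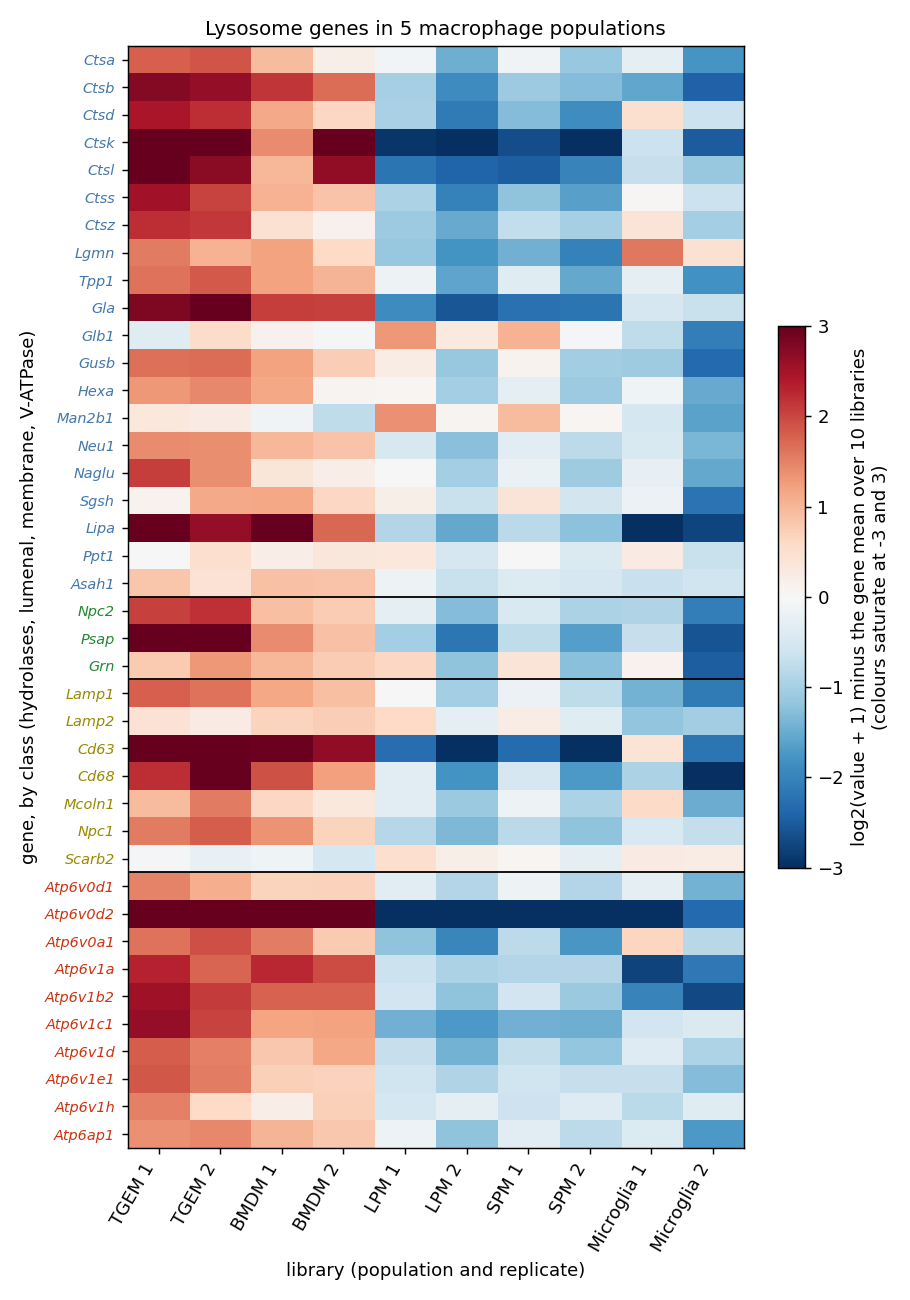
Read counts of the 40 lysosomal genes in the 10 libraries of the 5 populations. Colour gives log2(value + 1) minus the mean of the gene over the 10 libraries, rows are ordered by class and columns by population and replicate; in 31 of 40 rows the 4 TGEM and BMDM columns all lie above the 6 sorted columns.

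In TGEM, 32 of the 40 genes rose against the mean of the other 4 populations and 0 fell, where 12.7% of all 19313 genes tested were called higher and 14.8% lower (limma on log2(value + 1), Benjamini-Hochberg adjusted p under 0.05 and at least 1 on the log2 scale). The median log2 fold was 2.15 over the 40 genes and -0.09 over all genes whose mean read count reached 50. All 10 V-ATPase genes rose, with 15 of 20 hydrolases, 5 of 7 membrane proteins and 2 of 3 other lumenal proteins. BMDM followed with 20 genes higher and 0 lower (8.71% of all genes were called higher and 6.06% lower). The sorted cells lay on the other side: 15 genes were called lower and 0 higher in LPM (4.07% and 5.45% of genes), 12 lower and 0 higher in SPM (2.68% and 6.85%), and 22 lower and 1, Lgmn, higher in microglia (18.1% and 12.6%). These 5 comparisons share their libraries and are not independent. The TGEM count was 29 to 32 without any 1 library, whereas the others changed more. Leaving out BMDM replicate 2 left 6 calls in BMDM (and 8 to 10 without BMDM replicate 1 or any 1 of the LPM and SPM libraries), and leaving out either LPM library left 3 in LPM (and 9 without SPM replicate 1). Leaving out SPM replicate 1 left 0 in SPM (3 without SPM replicate 2, 6 without either LPM library), and leaving out microglia replicate 2 left 9 in microglia.

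Of the V-ATPase genes, Atp6v0d2 separated the populations most. Its read counts were 18175 and 17500 in TGEM and 6404 and 4171 in BMDM. In the sorted cells they were 4.67 and 0.512 in LPM, 6.93 and 10.3 in SPM, and 4.3 and 23.4 in microglia, or 1 to 15 reads in the 4 LPM and microglia libraries. TGEM, BMDM and the sorted libraries as a whole did not overlap, while LPM, SPM and microglia overlapped among themselves. Replicate 1 of TGEM was 3889-fold above that of LPM (95% counting interval 1887 to 9673, from 7 LPM reads), and replicate 2 was 34210-fold above (6140 to 1351240, from 1 read). Against LPM the limma log2 fold was 12.57 ± 0.77 (SE, adjusted p = 1.6e-05). Atp6v0d1 followed the same order over a far smaller range: 4396 and 3322 in TGEM, 2497 and 2515 in BMDM, and 589 to 1410 in the 6 sorted libraries. Its log2 fold against LPM was 1.89 ± 0.35 (limma, adjusted p = 0.0038). Per kb of listed span, the d2 read count was 3.76 and 4.79 times that of d1 in TGEM. In BMDM it was 2.33 and 1.51 times, and in the sorted libraries at most 0.0362 times. The listed spans, 45728 bases for d2 and 41570 for d1, include introns, while the exons cover 2493 and 1607 bases. Ratios per kb of exon would be lower and were not computed.

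The subunits of the outer sector rose in TGEM too, each by less than Atp6v0d2. Atp6v1c1, the C subunit that links V1 to V0, read 8383 and 5520 in TGEM, 3071 and 3123 in BMDM, and 409 to 991 in the sorted libraries. Its log2 fold of TGEM over LPM was 3.92 ± 0.32 (limma, adjusted p = 5.6e-05). Atp6v1b2, the nucleotide-binding B subunit, read 17377 and 12795 in TGEM against 1998 and 1279 in LPM, and microglia were lowest at 739 and 451. Atp6v1a, the catalytic A subunit, was as high in BMDM (13695 and 11138) as in TGEM (14104 and 9621), and the 2 ranges overlapped. The smallest rise was that of Atp6v1h, the regulatory H subunit (log2 fold over LPM 1.45 ± 0.39, limma, adjusted p = 0.021). The counted span of Atp6v1b2 overlaps Slc18a1, one of 10 such overlaps among the 40 genes (Ctsa, Ctsb, Ctsz, Glb1, Sgsh, Ppt1, Npc1, Scarb2, Atp6v0a1 and Atp6v1b2), where reads of the neighbour could not be told apart.

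**Figure D2:**
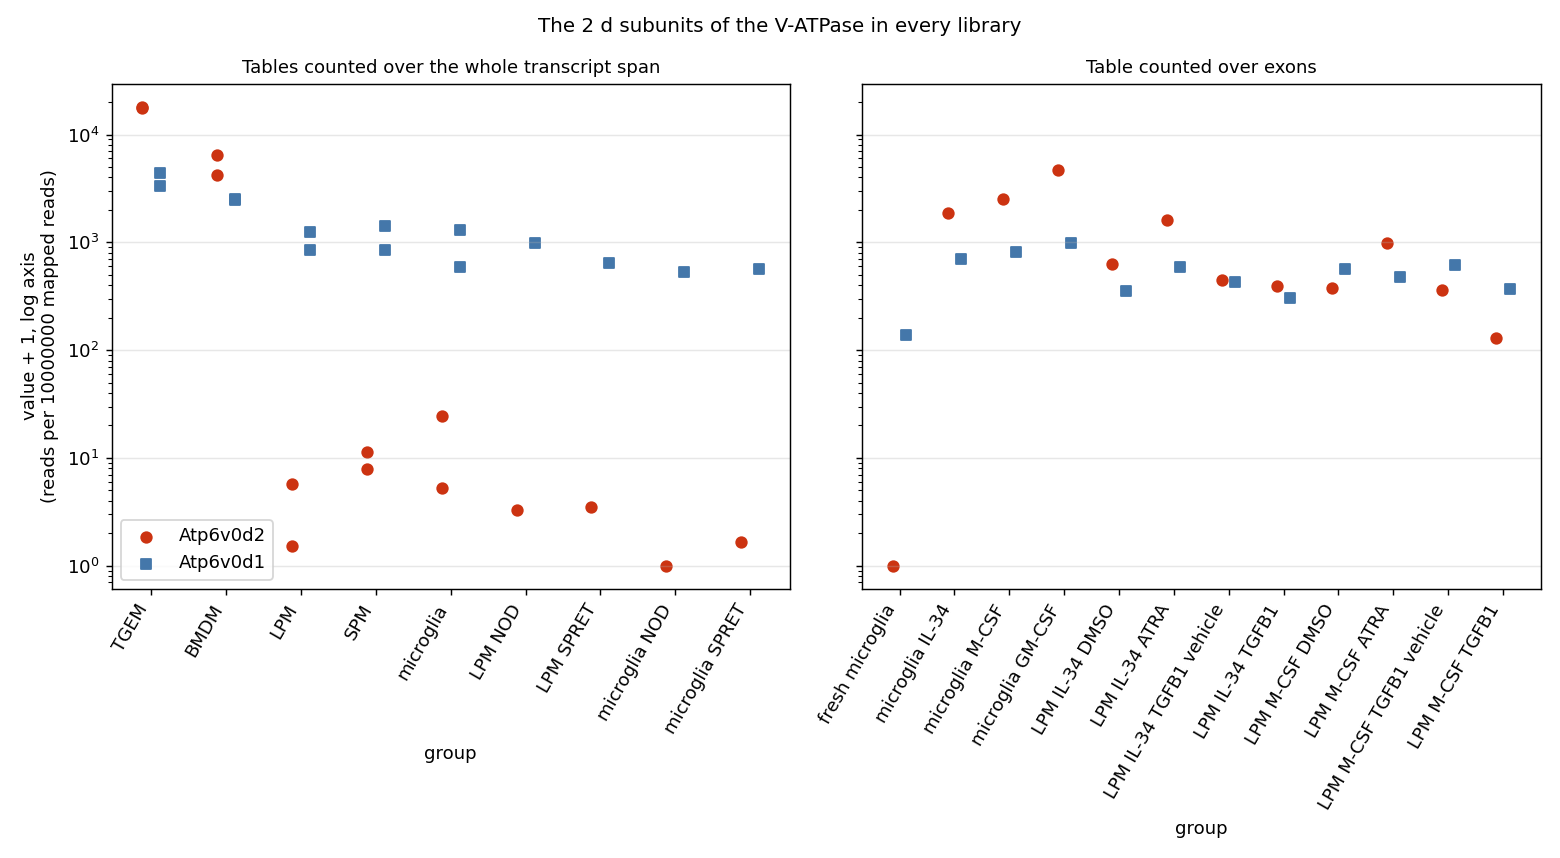
Read counts plus 1 of Atp6v0d2 (circles) and Atp6v0d1 (squares) on a log axis, 1 point per library, in the tables counted over the whole transcript span (left) and over exons (right). Atp6v0d2 ran from 0 to 18175 and Atp6v0d1 from 139 to 4396 over the 26 libraries.

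Proteases formed the hydrolase group with the largest rise. All 9 rose in TGEM over LPM (median log2 fold 3.77), as did 5 of 8 glycan-degrading enzymes (median 1.98). Of all 19313 genes, 12.6% were called higher and 14.4% lower. The median log2 fold was -0.06 over all genes with a mean of at least 50. Ctsk, the collagen-degrading cathepsin of osteoclasts, read 8379 and 2908 in TGEM, 249 and 811 in BMDM, 58.8 and 15.6 in microglia and at most 13.9 in LPM and SPM. Its log2 fold of TGEM over LPM was 8.94 ± 0.74 (limma, adjusted p = 6.2e-05). The fibroblast and mesothelial markers given above, whose cells also express Ctsk, were highest in the same TGEM libraries, and their part in this value was not tested. Ctsl, a broad cysteine protease, read 109832 and 30282 in TGEM, 9381 and 29606 in BMDM and 838 to 2868 in the sorted cells. TGEM replicate 2 and BMDM replicate 2 were thus close for Ctsl, while the replicates of BMDM differed by more than 3-fold. Ctsd, an aspartic protease, read 229266 and 192157 in TGEM and 57858 and 26480 in microglia, the highest sorted population for this gene. Ctsb, a cysteine protease, read 208898 and 190664 in TGEM, 136268 and 98961 in BMDM and 5756 to 15546 in the sorted cells.

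Among the sugar- and lipid-degrading enzymes, Gla and Lipa rose most. Gla, the α-galactosidase of glycolipid breakdown, read 3008 and 3814 in TGEM, 1811 and 1773 in BMDM, 300 and 267 in microglia and 71.1 to 115 in LPM and SPM. The 4 levels did not overlap. Lipa, the acid lipase that frees cholesterol from its esters, read 33992 and 25478 in TGEM, 33198 and 13497 in BMDM, 2251 and 1421 in LPM and 448 and 612 in microglia. TGEM and BMDM overlapped for Lipa, and microglia lay below every other library.

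Psap, the precursor of the saposins that present lipids to hydrolases, took the most reads of any of the 40 genes in TGEM. It read 370858 and 307475 in TGEM, 91756 and 62610 in BMDM and 5665 to 21112 in the sorted libraries, a log2 fold of 4.91 ± 0.76 over LPM (limma, adjusted p = 0.0016). Npc2, which carries cholesterol in the lumen, read 17708 and 19538 in TGEM and 1010 to 3482 in the sorted libraries. Cd63, a tetraspanin of the late endosome membrane, read 5546 and 3523 in TGEM and 1622 and 1317 in BMDM. In LPM it read 42.1 and 12.8, in SPM 41.6 and 11.4, and in microglia 277 and 45.3, so all sorted libraries lay below both other populations. Its log2 fold of TGEM over LPM was 7.50 ± 0.52 (limma, adjusted p = 2.8e-05). Cd68, a glycoprotein of macrophage lysosomes, read 14786 and 29728 in TGEM and 337 to 2516 in the sorted libraries.

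The rise was not shared by every lysosomal gene. Of the 40, 32 were called higher in TGEM against LPM (12.6% of all genes were called higher and 14.4% lower) and 8 were not called: Glb1, Man2b1, Sgsh, Ppt1, Asah1, Grn, Lamp2 and Scarb2. Man2b1, the lysosomal α-mannosidase, read 19647 and 7982 in LPM, 14573 and 7919 in SPM and 9479 and 8936 in TGEM (log2 fold of TGEM over LPM -0.44 ± 0.47). Glb1, the β-galactosidase, read 3428 and 1699 in LPM and 1082 and 2016 in TGEM, and the groups overlapped. Scarb2, the receptor that carries glucocerebrosidase to the lysosome, read 2619 and 2074 in LPM and 1750 and 1559 in TGEM. Lamp2, a membrane glycoprotein that also serves in chaperone-mediated autophagy, overlapped between LPM (9875 and 5338) and TGEM (8820 and 7715), while its relative Lamp1 read 35804 and 31459 in TGEM against 10271 and 5064 in LPM. Asah1, the acid ceramidase, missed the threshold at a log2 fold of 1.05 ± 0.36 (limma, adjusted p = 0.055). Without LPM replicate 2, 20 of the 40 were called.

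Between the elicited and the bone marrow-derived cells few genes passed the test. Ctsk, Ctsz and Naglu rose in TGEM against BMDM and 0 genes fell (2.44% of all genes were called higher and 3.49% lower). Ctsz, the carboxypeptidase cathepsin Z, read 20999 and 19715 against 6291 and 4997, a log2 fold of 1.86 ± 0.43 (limma, adjusted p = 0.037). Naglu, which removes glucosamine residues from heparan sulfate, read 3700 and 2327 against 1133 and 1006 (1.46 ± 0.34, limma, adjusted p = 0.037). Over all 40 genes the median log2 fold was 0.69, against -0.20 for all genes with a mean of at least 50. DESeq2 called 15 of the 40 (12.2% of all genes) and edgeR 5 (8.73%), so the number of genes that differ depended on the test. Leaving out TGEM replicate 2, or any 1 of 6 other libraries, left 0 calls, and leaving out BMDM replicate 2 left 1.

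**Figure D3:**
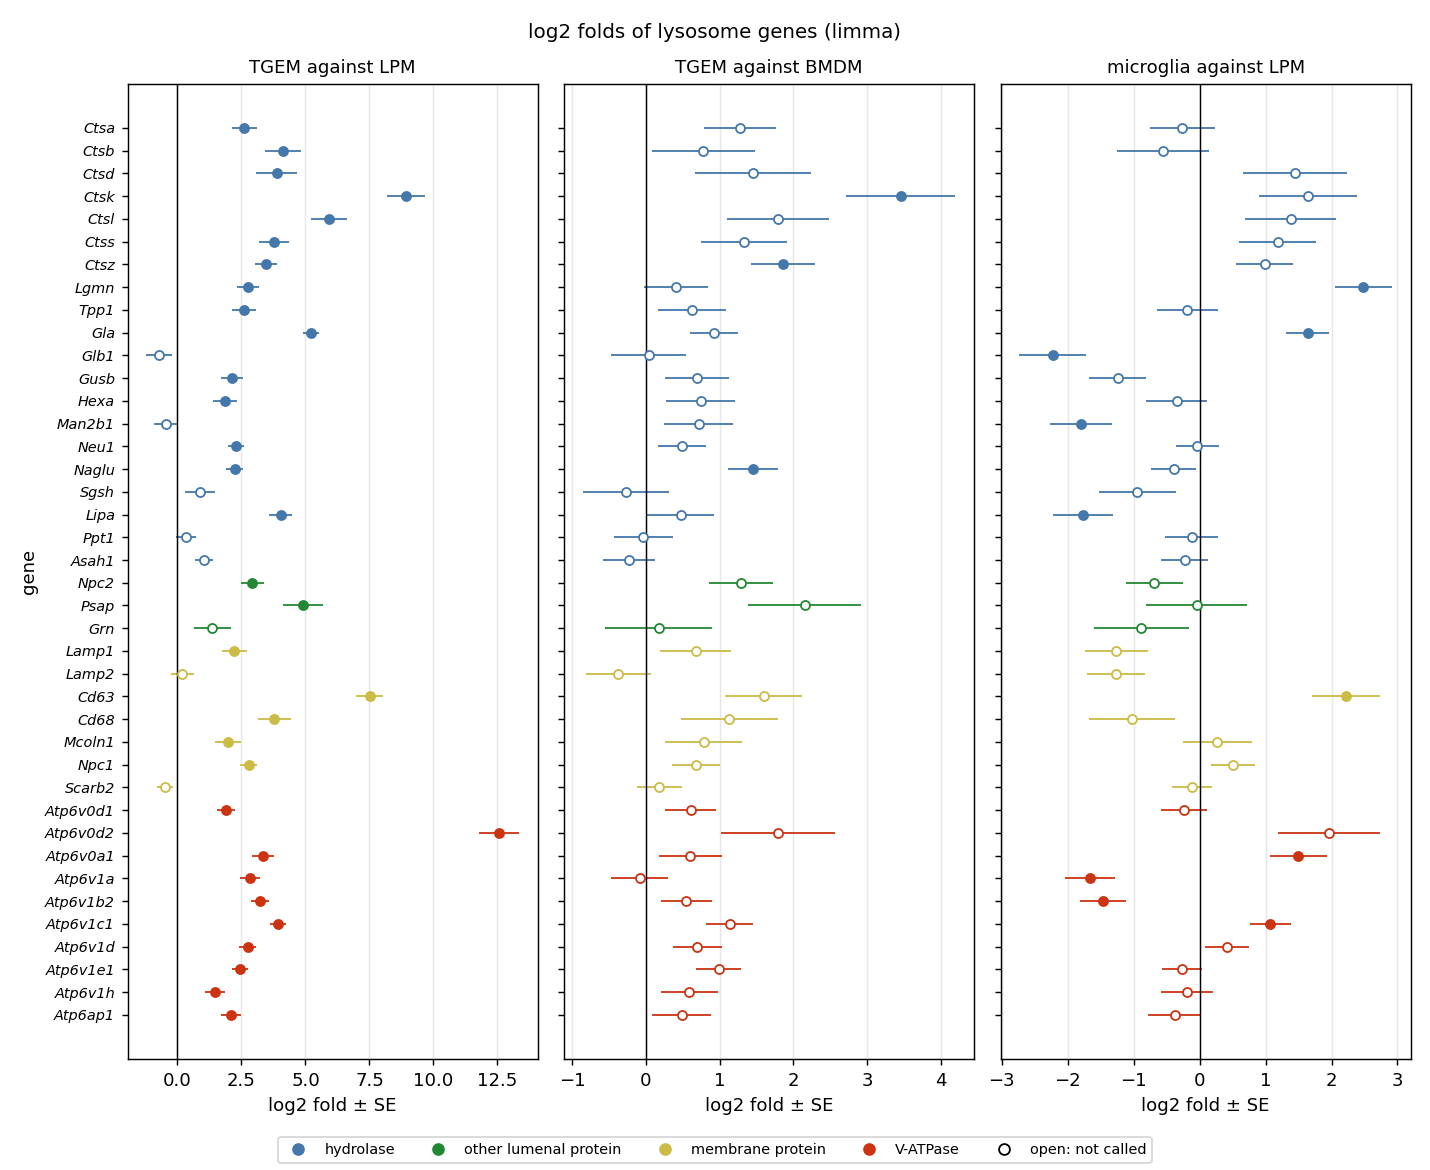
log2 folds with their standard errors for the 40 genes in 3 comparisons (limma), coloured by class, filled where called; the horizontal scales differ between panels. TGEM against LPM spans -0.71 to 12.57 and holds 32 filled points, TGEM against BMDM 3, and microglia against LPM 10, of which 5 lie on each side of 0.

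In LPM against SPM, the 2 resident populations of the peritoneal cavity, no call was made among the 40 genes. limma called 0 (0.0259% of all genes), with 0 at an unadjusted p under 0.05, and edgeR and DESeq2 also called 0. In SPM over LPM, 0 of 40 genes differed by 2-fold or more in replicate 1 (5.02% of all genes with a mean of at least 50 were higher by that much and 0.544% lower). In replicate 2, 1 was higher and 0 lower (2.67% and 1.15%), so both counts were near the share over all genes. Atp6v0d2 read 4.67 and 0.512 in LPM and 6.93 and 10.3 in SPM. SPM carried LPM marker reads as given above. The 6 SPM and dendritic markers summed to 45184 and 21900 in SPM and to 3792 and 2274 in LPM.

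Microglia and LPM differed in both directions, and the number of the 40 genes called lower was near the share over all genes. Of the 40, 5 were higher in microglia (Lgmn, Cd63, Gla, Atp6v0a1 and Atp6v1c1; 7.54% of all genes) and 5 lower (Glb1, Man2b1, Lipa, Atp6v1a and Atp6v1b2; 10.8%). Lgmn, the asparaginyl endopeptidase that activates other lysosomal proteases, read 23714 and 10864 in microglia against 3628 and 2277 in LPM, a log2 fold of 2.5 ± 0.43 (limma, adjusted p = 0.0031). In microglia replicate 1 it reached the TGEM level of 23482 and 16348. Glb1 read 813 and 326 in microglia against 3428 and 1699 in LPM (-2.23 ± 0.51, limma, adjusted p = 0.013). The V-ATPase genes split: Atp6v0a1, an isoform of the a subunit of V0, read 3911 and 1402 against 1076 and 642, while Atp6v1a read 416 and 640 against 1813 and 1465. Leaving out LPM replicate 2 left 0 of the 10 calls, and leaving out LPM replicate 1, microglia replicate 1, SPM replicate 1 or SPM replicate 2 left 1, 3, 6 and 6.

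The NOD/ShiLtJ and SPRET/EiJ libraries gave 2 further pairs of microglia and LPM. Over the 3 strains (C57BL6/J replicate 2, NOD/ShiLtJ and SPRET/EiJ, strain as a term), 7 of 37 genes were called higher in microglia (7.09% of genes) and 5 lower (8.95%). Lgmn read 17497 against 2849 in NOD/ShiLtJ and 14991 against 1266 in SPRET/EiJ, and its log2 fold over the 3 strains was 2.81 ± 0.31 (limma, adjusted p = 0.0018). The split of the proton pump was present in each strain: Atp6v1a read 615 against 1373 in NOD/ShiLtJ and 557 against 1365 in SPRET/EiJ, and Atp6v1b2 578 against 1134 and 507 against 1062. Atp6v1c1 went the other way, at 1386 against 377 and 1257 against 395, as did Atp6v0a1, at 1610 against 615 and 1927 against 971. Ctsd and Ctss, the latter a cysteine protease of antigen processing, were also called higher over the strains (log2 folds 1.54 ± 0.28 and 1.44 ± 0.30, limma, adjusted p = 0.013 and 0.020). The C57BL6/J libraries of this fit also belong to the comparison above. Leaving out 1 library left 10 calls without SPRET/EiJ microglia, 3 without SPRET/EiJ LPM, 1 without C57BL6/J microglia and 0 without any of the other 3.

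**Figure D4:**
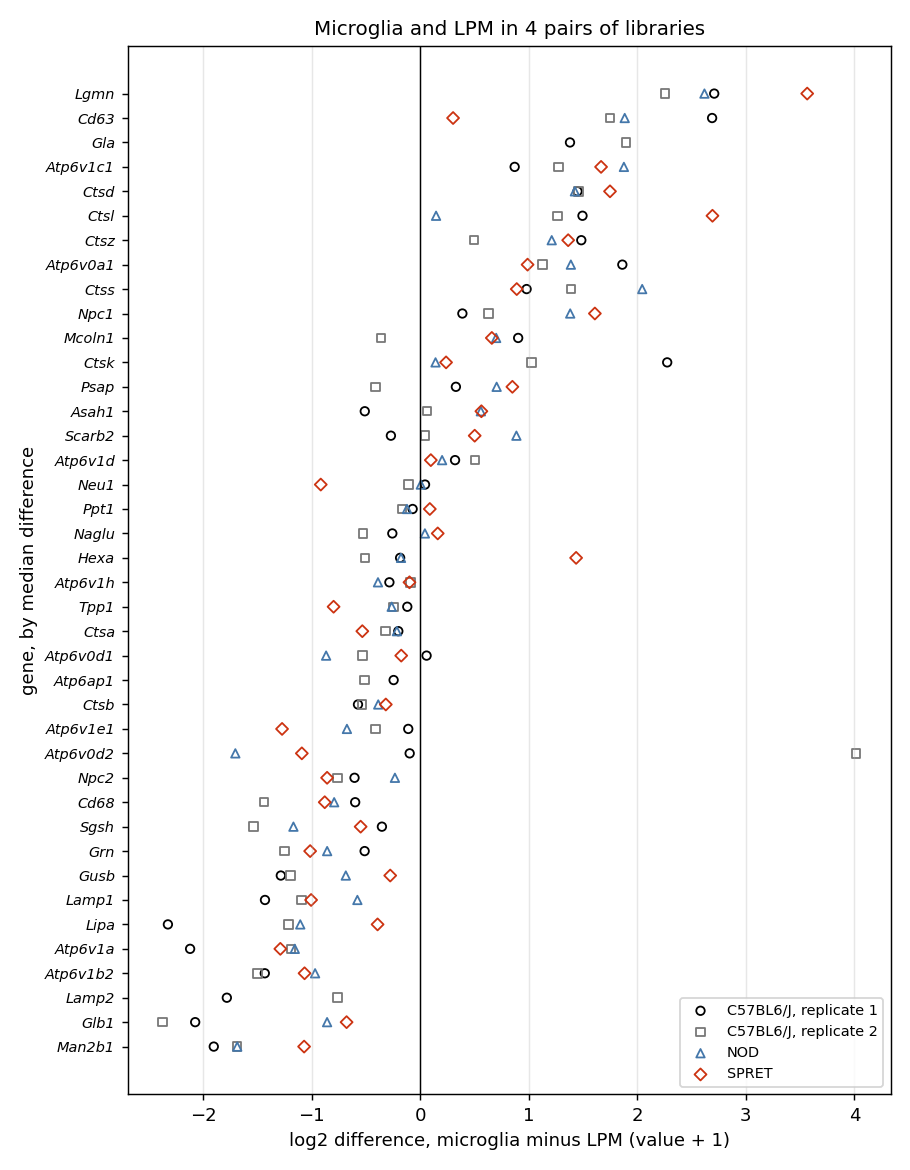
Differences in log2(value + 1) between microglia and LPM for each gene in 4 pairs of libraries (circles and squares, C57BL6/J; triangles, NOD/ShiLtJ; diamonds, SPRET/EiJ); Gla, Lamp2 and Atp6ap1 have no values in the other strains. Lgmn lies between 2.25 and 3.57 in all 4 pairs, and Atp6v1a between -2.12 and -1.16.

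SPRET/EiJ, a wild-derived strain of Mus spretus, was compared with NOD/ShiLtJ over both cell types. limma called 0 of 37 genes (0.31% of all genes), 7 had an unadjusted p under 0.05, and edgeR called 1 (0.537% of all genes) and DESeq2 2 (3.06%). Ctsk read 60.0 and 50.8 in SPRET/EiJ microglia and LPM against 1.35 and 1.13 in NOD/ShiLtJ, or 2 reads in each NOD/ShiLtJ library (log2 fold 4.65 ± 0.59, limma, adjusted p = 0.080). Hexa, the α chain of β-hexosaminidase, read 1028 and 380 against 2983 and 3376. How reads of the 2 strains were aligned is not given in the sources used here, and sequence differences between strains could not be told apart from expression.

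The cultured libraries and the fresh microglia of the same table were counted over exons, so their values are compared only among themselves. Culture was accompanied by a rise of lysosomal genes in microglia. The 40 genes took 2.45% of the reads on genes in the fresh library and 9.52%, 8.23% and 8.6% with IL-34, M-CSF and GM-CSF. Of the 40, 40, 40 and 39 were higher than in the fresh library, with median log2 differences of 2.14, 2.46 and 2.49, beside 0.60, 0.95 and 0.89 over all genes with a mean of at least 50. The values of the fresh library summed to less than those of each cultured microglia library, and the median log2 fold over all genes with a mean of at least 50 was 0.86 in the limma fit; the part of the former in the latter was not tested.

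The limma test, with 3 cultured libraries against 1 fresh library, called 8 of the 40 higher and 0 lower (3.34% of all genes were called higher and 5.67% lower). They were Atp6v0d2, Gla, Atp6v1a, Lipa, Atp6v1b2, Gusb, Atp6v0d1 and Atp6v1h, 5 of them V-ATPase genes. DESeq2 called 22 (11% of all genes), edgeR 2 (1.87%), and leaving out any 1 cultured library left 2. Atp6v0d2 had 0 reads in the fresh library and read 1874, 2540 and 4703 with IL-34, M-CSF and GM-CSF, at least 559-fold, 757-fold and 1402-fold above a floor of 3 reads. Gla read 54.8 fresh and 1382, 1537 and 1620 cultured, a log2 fold of 4.76. In this fit the spread came from the 3 cytokines, since the fresh group held 1 library. Its calls thus carry no measure of the spread between preparations. On simulated data limma recovered none of the known differences in this comparison. Lipa read 449 fresh and 9147, 7049 and 6859 cultured. The largest difference outside the calls was that of Ctsk, at 6.71 fresh and 893, 2099 and 285 cultured. The fibroblast and mesothelial markers moved in the same order, from 6.71 fresh to 470, 772 and 37.5, and their part was not tested. Exceptions to the rise were few: Lgmn read 7641 fresh and 8685, 7913 and 11777 cultured, and Sgsh, a heparan sulfate sulfatase, read 57 fresh and 15.4 with GM-CSF.

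GM-CSF gave 1 library, so its values carry no test. Atp6v0d2 was 2.51 times its level with IL-34 and 1.85 times its level with M-CSF, and Atp6v0a1 read 4350 against 1695 and 1488. Ctsk was lower, at 0.319 and 0.136 times the levels with IL-34 and M-CSF. Of the 40 genes, 2 were at least 2-fold higher and 3 at least 2-fold lower than with IL-34, where 11.3% and 3.61% of all genes with a mean of at least 50 were. Against M-CSF these were 1 and 6 genes, where 9.83% and 16.1% of all genes were, so the share lowered was near that of all genes.

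Cultured microglia also stood above cultured LPM. With IL-34 or M-CSF alone, microglia had 17 genes higher and 2 lower than the 4 LPM libraries with DMSO or the TGFB1 vehicle (9.3% and 5.01% of all genes). Ctsk (893 and 2099 against 3.92 to 11.8), Cd63 (999 and 1546 against 151 to 247), Ctsl (17278 and 25021 against 2470 to 5478) and Atp6v0d2 (1874 and 2540 against 362 to 627) rose most. Their log2 folds were 7.57 ± 0.53, 2.66 ± 0.20, 2.49 ± 0.31 and 2.30 ± 0.28 (limma, adjusted p = 0.00029, 0.00037, 0.0022 and 0.0021). In the uncultured populations the difference in Atp6v0d2 had not passed the test (log2 fold 1.96 ± 0.77, limma, adjusted p = 0.12). Sgsh and Glb1 were lower in cultured microglia. After each library was centred on its median, a setting chosen after the data were seen, 9 were higher and 2 lower. Over all 15941 genes, 1009 were then called higher and 1346 lower. Leaving out LPM with M-CSF and the TGFB1 vehicle or with M-CSF and DMSO, without centring, left 9 or 10 calls. The fibroblast and mesothelial markers summed to 470 and 772 in microglia with IL-34 and M-CSF and to 2.35 to 45.7 in the 4 LPM libraries. The 7 osteoclast markers summed to 480 and 6135 against 181 to 515. The part of such cells in these differences was not tested.

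In cultured LPM, ATRA, the ligand of retinoic acid receptors, raised 2 of the 40 genes and lowered 0 (1.95% of all genes were called higher and 0.35% lower). Atp6v0d2 read 1602 with ATRA and 627 with DMSO in IL-34, and 975 and 376 in M-CSF, so both ATRA libraries lay above both DMSO libraries. Its log2 fold was 1.36 ± 0.32 (limma, adjusted p = 0.0020). Glb1 read 1668 against 531 and 2099 against 925, a log2 fold of 1.42 ± 0.33 (limma, adjusted p = 0.0019). Atp6v0d1 read 593 against 356 in IL-34 and 478 against 561 in M-CSF, 0.25 ± 0.32 (limma, adjusted p = 0.97). edgeR and DESeq2 also called 2 genes each (2.45% and 1.76% of all genes). With no filter on low values limma called 0, and leaving out any 1 of 6 of the 8 libraries of the fit (all but M-CSF with TGFB1 and IL-34 with the TGFB1 vehicle) left 0. With ATRA, 39 of the 40 genes were higher than with DMSO in IL-34, but 17 in M-CSF. Over all genes with a mean of at least 50 the median log2 difference was 0.46 in IL-34 and -0.25 in M-CSF, beside 0.69 and -0.08 for the 40.

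With TGFB1, a cytokine on which microglia depend, 1 gene was called in each direction, a share no larger than that of all genes (3.17% were called higher and 3.53% lower). Scarb2 rose, from 1448 with vehicle to 4014 in IL-34 and from 1461 to 3338 in M-CSF, and no library overlapped (log2 fold 1.33 ± 0.36, limma, adjusted p = 0.0045). Atp6v0a1 fell, from 632 to 351 and from 953 to 339 (-1.17 ± 0.32, limma, adjusted p = 0.0060). Ctss (7649 to 21045 and 8065 to 15494), Man2b1 (3005 to 7029 and 3680 to 7447) and Ctsd (68180 to 208586 and 111140 to 163007) were higher with TGFB1 in both ligands. They missed the limma threshold (adjusted p = 0.14, 0.071 and 0.78), while edgeR and DESeq2 called all 3, for 5 genes in all (6.9% and 5.38% of all genes). Atp6v0d2 read 391 against 446 in IL-34 and 130 against 362 in M-CSF (-0.83 ± 0.32, limma, adjusted p = 0.11). Leaving out 1 library left 0 calls for 6 of the 8 libraries of the fit, 3 without IL-34 with DMSO and 2 without M-CSF with ATRA.

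For the 2 CSF1R ligands no call was made. Between M-CSF and IL-34, over 4 libraries each, limma called 0 of 40 genes (0.999% of all genes), 2 had an unadjusted p under 0.05, and edgeR and DESeq2 called 0. Atp6v0d2 was lower with M-CSF in 4 of 4 pairs (log2 fold -0.83 ± 0.23, limma, adjusted p = 0.025, under the fold minimum), and Atp6v0d1 gave 0.28 ± 0.23 (limma, adjusted p = 0.84).

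**Figure D5:**
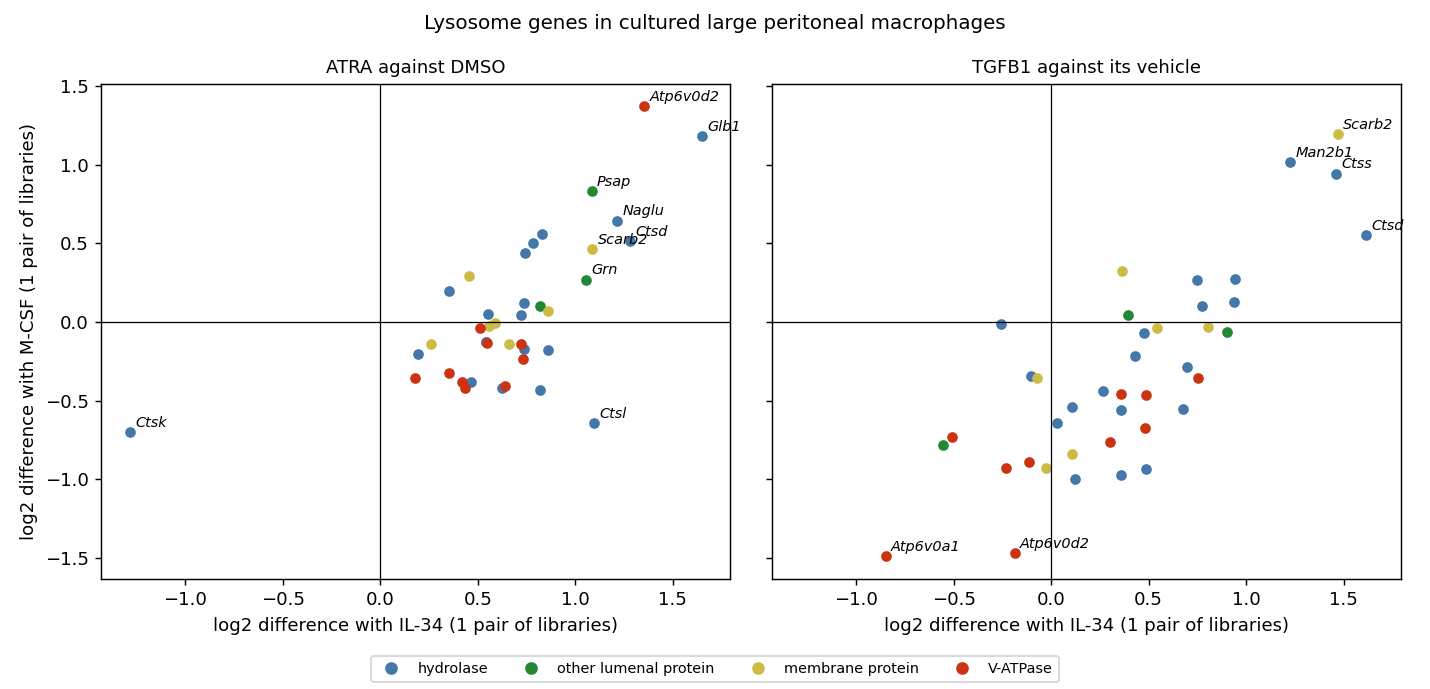
log2 differences of the 40 genes in cultured LPM with IL-34 (horizontal axis) and M-CSF (vertical axis), for ATRA against DMSO (left) and TGFB1 against its vehicle (right), coloured by class; each axis is 1 pair of libraries. Atp6v0d2 and Glb1 lie above 1 on both axes with ATRA, Scarb2 and Man2b1 with TGFB1.

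Chromatin was read from the authors' lists of PU.1 peaks and of H3K27Ac regions, 1 library per population. PU.1 is the lineage factor of macrophages, and H3K27Ac marks active promoters and enhancers. A PU.1 peak lay within 10 kb of the transcript span in all 40 genes in BMDM, LPM, SPM and TGEM (70.1%, 69.3%, 76.1% and 70.5% of 24048 genes) and in 38 in microglia (64.4%), with Glb1 and Mcoln1 outside. An H3K27Ac region lay within 1 kb of the start site in 40 of 40 genes in BMDM and TGEM (43.1% and 47.5% of genes), 35 in LPM (38.5%), 36 in SPM (42.1%) and 30 in microglia (26.2%). The lists differ in length, from 15091 regions in microglia to 35713 in BMDM. The genes without a region at the start site in all 3 sorted populations were Atp6v0d2, Cd63 and Ctsk. Read counts of these 3 were also those with the widest range between populations. The median share of the window under H3K27Ac was 30.3% for the 40 genes in TGEM against 2.95% for all genes, 25.6% against 1.84% in BMDM, and 7.23% against 0% in microglia.

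Around Atp6v0d2 (chr4:19876838-19922566 in mm10, minus strand), H3K27Ac covered 35720 bases of the 65728-base window in TGEM and 35576 in BMDM, but 9166 in LPM, 12409 in SPM and 0 in microglia. Within 10 kb of its span lay 17 PU.1 peaks in TGEM, 19 in BMDM, 9 in LPM, 14 in SPM and 2 in microglia. The PU.1 lists held 70436, 67724, 65261, 89648 and 44869 peaks in the same order. One peak, 27.8 kb downstream of the start site and inside the span, was present in each of the 5 lists and had a score at the 93.7th percentile of its list or above. Around Ctsk a single H3K27Ac region covered 27229 bases in TGEM and 24832 in BMDM, against 1440 to 1547 in the sorted populations. In the cultured LPM lists at most 0.158% of genes had a region at the start site, and these were not compared. The PU.1 lists with DMSO and ATRA held 9645 and 28624 peaks, but 0 of 24048 genes had a peak within 2 kb of the start site. Whether entries near start sites were left out of these lists was not tested. The sorted cells were fixed before sorting and the others in culture. Scores were therefore given only as ranks within a list, beside presence, number and covered length.

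Genes of the lysosome outside the 40, listed with earlier results of these data known, also rose in TGEM. Of 39 other lysosomal genes, 20 rose and 2, Ctsc and Ctsf, fell in TGEM against the other 4 populations (12.7% and 14.8% of all genes), and of 14 other V-ATPase genes tested 7 rose and 0 fell. Lysosomal sorting genes gave 4 higher of 10 (Gnptab, Igf2r, M6pr and Vps26a). In microglia against LPM (7.54% of all genes higher and 10.8% lower), 6 of the 39 were higher, with Cst3, a cathepsin inhibitor, among them, and 3 were lower; 4 of the 14 other V-ATPase genes were higher and 1 lower. In cultured LPM, ATRA raised 3 of the 39 (Acp5, Arsb and Gm2a; 1.95% of all genes) and TGFB1 raised 5, with Acp5, Arsb, Ctsh and Galns among them, and lowered 1, Cstb (3.17% and 3.53% of all genes).

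The MiT factors moved in both directions in TGEM. Against LPM, Tfeb and Tfe3 were higher (log2 folds 1.4 ± 0.42 and 1.3 ± 0.40, limma, adjusted p = 0.031 and 0.036), Mitf was lower (-1.45 ± 0.40, limma, adjusted p = 0.023), and Tfec gave -0.57 ± 0.48 (limma, adjusted p = 0.42). Tfec was lower in microglia than in LPM (-4.78 ± 0.48, limma, adjusted p = 0.00012). In cultured LPM, Tfec rose with ATRA (1.32 ± 0.36, limma, adjusted p = 0.013) and fell with TGFB1 (-1.76 ± 0.36, limma, adjusted p = 3.4e-05).

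Over the 10 population libraries, the 5 genes whose log2 values followed Atp6v0d2 most closely, among 10917 with a mean of at least 50, were Oit3, Cyp4v3, Ngfrap1, Creg2 and Fam132a (Pearson r from 0.976 to 0.983). Oit3 read 364 and 380 in TGEM, 121 and 134 in BMDM and at most 2.00 in the sorted libraries. Among the other 39 lysosomal genes Npc1, which moves cholesterol out of the lysosome, followed it most closely, at rank 19. These points share libraries and 5 populations, and r is given as a description.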

How the data were processed

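The authors deposited, per the file headers, read counts per transcript scaled to 10000000 mapped reads (a signal value per library), in 4 tables for polyA, replicate, strain and culture libraries; STAR, Bowtie, HOMER and mm10 are named in the submitters' processing notes, without versions. Spans were counted in full in 3 tables and over exons in the culture table. Of low values, 100% were whole multiples of 1 read (within 0.1), so reads were recovered for count tests. Scores in the authors' deposited peak and region lists, also theirs, were used only to rank entries; 37 lists entered, and the PU.1 lists of TGFB1 and its vehicle, identical to each other, did not. The column of fresh microglia in the culture table is named as a vehicle and was taken as the untreated sample.

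The tests used limma 3.58.1 (trend option) on log2(value + 1), on genes reaching 1 in at least 1 library, in R 4.3.3, with a table term in the population fits, a strain term across strains and a ligand term in cultures; calls needed adjusted p under 0.05 and a log2 fold of 1. The table term stands for separately made tables; same-numbered libraries deviated together in part (correlations of their deviations from -0.24 to 0.901, over 0.1 in 6 of 10 pairs of populations and below 0 in the 4 pairs with TGEM). edgeR 4.0.16, DESeq2 1.42.0, quantile normalization, other filters, pseudocounts, rows per symbol and fits without each library were alternatives. All fits were tested on simulated data, in which limma recovered none of the known differences in the comparison with 1 fresh microglia library. All 40 genes could be named; full statistics were given for called genes with the largest folds, up to 8 each way, plus Atp6v0d1 and Atp6v0d2, and uncalled exceptions were chosen after their values were seen. Members and lists were chosen with earlier results of these data known. Depth limits precision: at 1 read, values of 0.37 to 3.46 are the smallest above 0 in the population libraries, and intervals cover counting error only.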

Additional observations from a re-analysis of the deposited data

Results flagged for a closer look

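The following effects pointed in opposite directions in 2 strata, by 0.5 or more on the log2 scale in each, with 1 pair of libraries per stratum, and the differences were not tested. For Ctsl, ATRA against DMSO gave 1.1 with IL-34 (7391 against 3454) and -0.642 with M-CSF (3510 against 5478). For Gla, TGFB1 against vehicle gave 0.676 with IL-34 (788 against 493) and -0.556 with M-CSF (552 against 811). For Ctsl, SPRET/EiJ against NOD/ShiLtJ gave -2.01 in LPM (267 against 1080) and 0.532 in microglia (1728 against 1195).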

How the results depend on the processing

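Every called gene kept its direction in every setting tried. Calls in all settings were held by 24 of 32 genes in TGEM against the other populations, 18 of 32 in TGEM against LPM, 6 of 20 in BMDM, 3 of 15 in LPM, 6 of 23 in microglia, 1 of 8 (Gla) in cultured against fresh microglia and 3 of 19 (Atp6v1b2, Cd63 and Ctsk) in cultured microglia against LPM, and by 0 in the other comparisons. Of the counts, 155 of 190 stayed within 1.5 times under other settings and 79 of 129 without 1 library; where they did not, the cause was not tested. With no filter on low values, calls were 11 in BMDM (1447 of 24063 genes), 7 in LPM (933), 5 in SPM (821) and 14 in microglia (4661). In TGEM against BMDM they were 0 (298 genes), and in microglia against LPM 5 (2400). Across the strains (17 of 22968 genes), with ATRA (10 of 24063) and with TGFB1 (8) they were 0. In cultured microglia against LPM they were 4 (593). edgeR called 19 in SPM (2219 of 19313 genes), 5 in TGEM against BMDM (1686), 1 in SPRET/EiJ against NOD/ShiLtJ (97 of 18068) and 5 with TGFB1 (1064 of 15417). DESeq2 called 22 (2285), 15 (2350), 2 (553) and 5 (829) in the same order, plus 18 in microglia against LPM (4192 of 19313). Quantile normalization gave 4 with TGFB1 (973 of 15417 genes) and 10 in cultured microglia against LPM (2232 of 15941). A minimum mean of 10 gave 4 with TGFB1 and 25 in cultured against fresh microglia, a pseudocount of 0.1 gave 1 in TGEM against BMDM, and no fold minimum gave 1, Atp6v0d2, between M-CSF and IL-34. Median centring, chosen after the data were seen, gave 8 in TGEM against BMDM (1454 of 19313 genes) and 4 with TGFB1 (990 of 15417). In cultured microglia against LPM it gave 11 (2355 of 15941).

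Without the replicate block (the table term), calls were 15 in microglia against the other populations, 1 in TGEM against BMDM and 6 in microglia against LPM, and its removal changed no other count by over 1.5 times. The block is the table by design, and the labels do not say that replicate numbers mark shared animals.

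Leaving out 1 library at a time, counts ran from 29 to 32 in TGEM, 6 to 23 in BMDM, 3 to 19 in LPM, 0 to 14 in SPM, 9 to 24 in microglia, 20 to 33 in TGEM against LPM, 0 to 2 in TGEM against BMDM, 0 to 11 in microglia against LPM, 0 to 10 across strains, 0 to 2 with ATRA, 0 to 3 with TGFB1, 2 to 2 in cultured against fresh microglia and 9 to 17 in cultured microglia against LPM. With a single pair per strain, SPRET/EiJ against NOD/ShiLtJ had too few libraries to leave 1 out. Uncalled differences of the d subunits changed sign. Without 1 library, Atp6v0d1 ran from -0.60 to 0.12 in microglia against LPM (positive without microglia replicate 2), from -0.19 to 0.019 in LPM against SPM (positive without SPM replicate 1) and from -0.15 to 0.65 with ATRA (negative without the IL-34 ATRA library). In LPM against SPM it also gave 0.091 with median centring, 0.10 with edgeR and 0.075 with DESeq2. Atp6v0d2, with at most 15 reads in any library of the strain fit, gave -0.36 across strains with a pseudocount of 0.1, -0.96 with DESeq2 and -1.40 without C57BL6/J microglia or without C57BL6/J LPM.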
